A study of Mus musculus with 12 samples.

Results

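Mesothelial nuclei of the mouse lung were selected by their transcripts. A nucleus was a member when it held at least 3 unique molecular identifiers (UMIs, counted RNA molecules) over at least 2 of the mesothelial genes Wt1, Msln, Upk3b, Upk1b, Muc16 and Lrrn4. It also had to hold more UMIs of those genes than of 9 genes of other lung cells (Rtkn2, Scel, Lamp3, Acoxl, Itga8, Scube2, Kit, Ednrb and Mmrn1). Nuclei with 200 to 6000 detected genes and at most 5% mitochondrial UMIs were considered. The rule found 505 members among 47319 such nuclei, or 1.07%. All 12 libraries held members, from 3 to 245, and the largest number came from Bleo_vehicle replicate 3, which therefore weighs most in values pooled over members.

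The mesothelium is the single layer of flat cells that covers the lung as the visceral pleura. Its cells have features of epithelium, such as keratins and intercellular junctions, together with a mesodermal origin marked by the transcription factor Wt1. They secrete lubricating glycoproteins and hyaluronan into the pleural space and are a source of retinoic acid and growth factors in the developing lung.

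Single-nucleus RNA was sequenced from frozen lung tissue of wild-type C57BL/6J mice, with 3 libraries, each of 1 mouse, in each of 4 groups. Mice received PBS or bleomycin into the trachea at 7 weeks of age, and lungs were taken at day 14. From day 5, 5 daily doses of vehicle (N-methyl-2-pyrrolidone with polyethylene glycol) or of NVP-BHG712, an inhibitor of the receptor tyrosine kinase EphB4, were given by oral gavage. The groups are PBS_vehicle, PBS_NVP, Bleo_vehicle and Bleo_NVP, and the comparisons address what bleomycin injury, and EphB4 inhibition during it, do to lung cells. Intratracheal bleomycin reaches the tissue through the airways, the inhibitor was systemic, and the sources used here state neither the sex of the mice nor how much pleural surface each tissue piece held.

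Libraries held 1179 to 13277 passing nuclei and 3556084 to 61947690 UMIs. Several properties of the libraries touch the results. The labels give the PBS libraries run numbers 1 to 3, the Bleo_NVP libraries run 4, and the Bleo_vehicle libraries a batch number of 6 or 7, so a bleomycin effect, or an inhibitor effect within bleomycin, and a batch effect cannot be told apart. Mitochondrial UMIs made up 0.616% to 1.43% of the UMIs of non-member nuclei in the 3 Bleo_vehicle libraries and 0.0474% to 0.0794% in the other 9. In Bleo_vehicle replicate 1, Msln was found in 8.81% of non-member nuclei, against at most 1.61% in any other library. Of 48838 barcode sequences, 324 occurred in more than 1 library, and none was a member in more than 1 library.

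The genes of the rule describe the members and are no finding. Muc16, a membrane mucin, was detected in 466 of 505 members (92.3%). Wt1 was detected in 368 (72.9%) and Upk1b, a uroplakin, in 367 (72.7%). Msln (mesothelin) was found in 49.3%, Upk3b in 192 (38.0%) and Lrrn4 in 128 (25.3%). Members held a median of 10 UMIs of the 6 genes and at most 84. Of all members, 118 had 2 of the genes and 31 had all 6. Just inside the threshold lay 44 members with exactly 3 UMIs. Just outside lay 38 nuclei with 2 UMIs over 2 genes, 131 nuclei with 3 or more UMIs of 1 gene only, and 79 nuclei that passed the first condition but had at least as many UMIs of the 9 opposing genes.

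The label was checked against 20 mesothelial genes that the rule does not contain, although they were read in the same nuclei. Gpm6a, a neuronal-type membrane glycoprotein, was detected in 457 of 505 members (90.5%) and in 4.87% to 13.8% of non-member nuclei per library. Pkhd1l1, a large fibrocystin-like membrane protein, was in 83.4% of members and 0.377% to 2.21% of the others. Aldh1a2, which makes retinoic acid, was in 59.4% against 0.288% to 1.24%. Bnc1, a zinc finger transcription factor, was in 35.2% against at most 0.322%. At least 3 UMIs over at least 2 of the 20 genes were present in 492 members. The share of nuclei with a UMI was thus higher in members than in the other nuclei of any library for all 4 genes. The median depth was 3576 UMIs over the members and 1076 to 5396 per library in the other nuclei.

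The keratins were sparse. Krt7 was detected in 121 of 505 members, against 11.1% to 21.1% of other nuclei, Krt19 in 12.7%, Krt18 in 7.52% and Krt8 in 5.35%. Calb2, which encodes calretinin, was detected in 0 of 505 members. Counting error alone allows a share of up to 0.594% of nuclei with a UMI, and the spread between mice is not covered. Gpm6a was missing from 48 members, of which 37 came from Bleo_vehicle libraries. In Bleo_vehicle replicate 1 only 8 of 15 members carried Gpm6a and no UMI of Upk3b was counted, the lowest share with Gpm6a of the 12 libraries.

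Members also carried RNA of other cell types. By the same minimum of 3 UMIs over 2 genes, 340 of 505 members (67.3%) met the marker list of at least 1 other class, most often type II alveolar cells (162), adventitial fibroblasts (154) and club cells (128). Pooled over libraries, these were 27 of 56 members in PBS_vehicle and 74 of 111 in PBS_NVP. They were 224 of 300 in Bleo_vehicle and 15 of 38 in Bleo_NVP. By replicate they were 18 of 28, 3 of 9 and 6 of 19 in PBS_vehicle. The PBS_NVP replicates held 61 of 86, 3 of 6 and 10 of 19. Those of Bleo_vehicle held 8 of 15, 17 of 40 and 199 of 245, and those of Bleo_NVP 4 of 12, 0 of 3 and 11 of 23. The pooled Bleo_vehicle and PBS_NVP values thus rest mainly on 1 library each. The UMIs of the adventitial list were mainly those of 1 gene, Adamtsl1, while Ccl11 was at 0. Adamtsl1 was at 5565 ± 2418 CPM (UMIs per 1000000 UMIs of the summed nuclei) in members and 323 ± 88.8 in other nuclei (SD, n = 9 libraries). Because 2 genes were required, each of the 154 members also held a UMI of a list gene other than Adamtsl1. The following ranges cover the 9 libraries with at least 10 members. Summed type II markers ran from 663 to 1806 CPM in members of Bleo_vehicle, 129 to 431 in PBS_vehicle, 230 to 458 in PBS_NVP and 0 to 268 in Bleo_NVP. Macrophage markers ran from 160 to 497 CPM in members of Bleo_vehicle and at most 155 in the other groups. In non-member nuclei, type II markers ran from 442 to 2126 CPM in Bleo_vehicle and 874 to 1338 over the other groups. Macrophage markers there ran from 435 to 736 CPM in Bleo_vehicle and 281 to 558 over the other groups. In members, the 20 mesothelial genes outside the rule ran the other way, at 3429 to 9758 CPM in Bleo_vehicle and 14295 to 22771 over the other 3 groups. Whether mixed droplets or free RNA underlie these values was not tested, and no doublet caller was run.

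**Figure D1:**
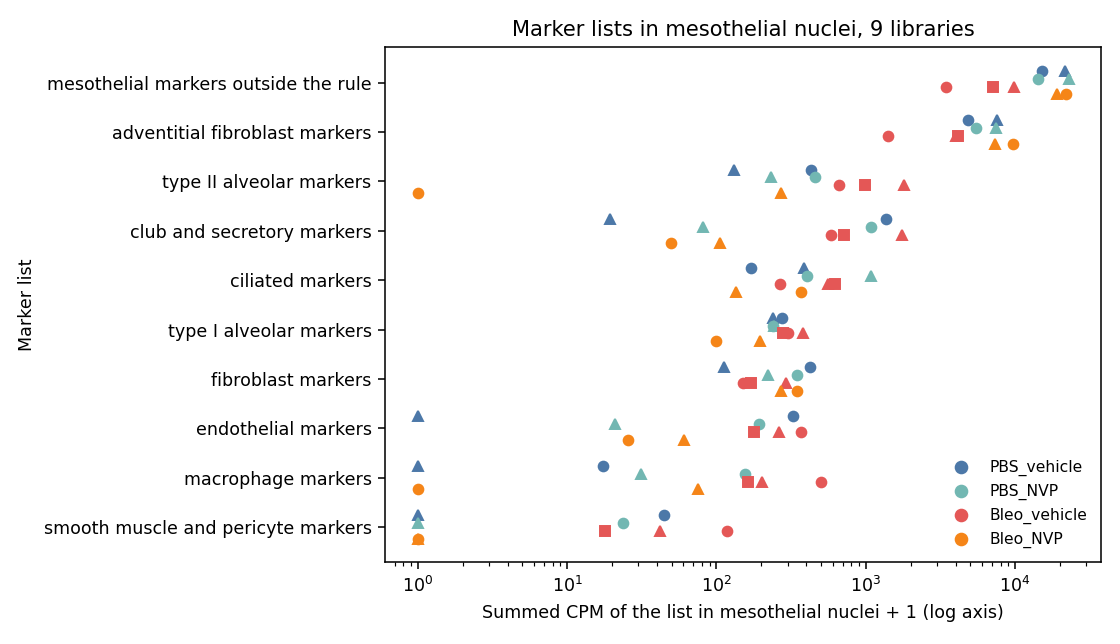
Summed CPM plus 1 (log axis) of each marker list in the members of the 9 libraries with at least 10 members, with 1 point per library coloured by group. The Bleo_vehicle points lie lowest for the list of mesothelial genes outside the rule and highest for the type II and macrophage lists.

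The share of mesothelial nuclei did not differ between groups beyond the spread of libraries. In PBS_vehicle the 3 libraries held 0.743%, 0.363% and 1.30%, in PBS_NVP 0.999%, 0.285% and 1.08%, in Bleo_vehicle 0.660%, 0.600% and 1.85%, and in Bleo_NVP 1.02%, 0.141% and 1.43%. Group means were 0.801% ± 0.470, 0.789% ± 0.438, 1.03% ± 0.702 and 0.862% ± 0.657 in that order (SD, n = 3). The ranges of all groups overlapped. The 6 bleomycin libraries exceeded the 6 PBS libraries by 0.154 points (2-sided exact permutation test, p = 0.619). The 4 comparisons of 3 with 3 libraries, which cannot give an exact permutation p under 0.1, gave p of 0.7 to 1. All 5 had an adjusted p of 1 (Benjamini-Hochberg, exact permutation tests). After thinning each nucleus to 1000 UMIs, which left out 7636 shallower nuclei, group means were 0.518% to 0.554%. Without Bleo_vehicle replicate 3 the bleomycin libraries were lower than the PBS libraries, by -0.0255 points.

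**Figure D2:**
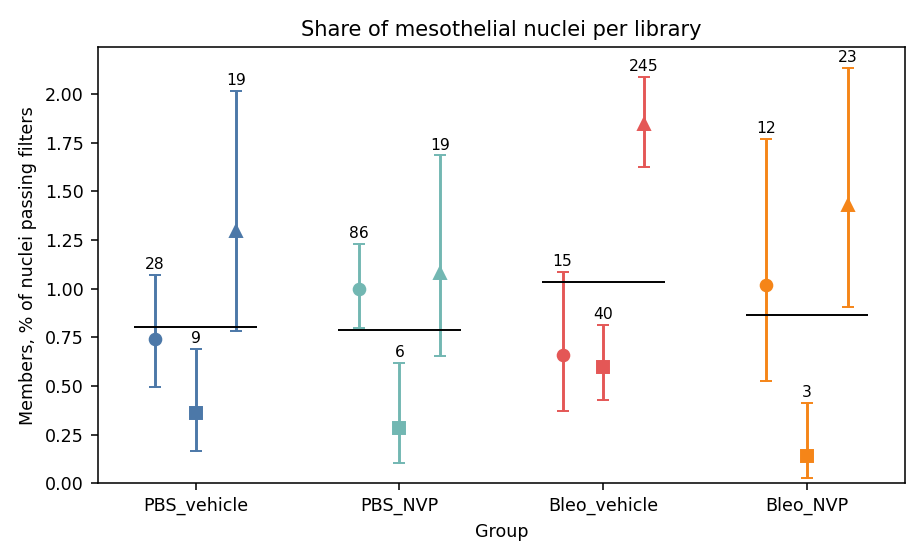
Members as a percentage of passing nuclei (y axis) by group (x axis), with 1 point per library. Bars are exact binomial 95% intervals covering counting error only, black lines are group means and printed numbers are member counts, and all 4 groups overlap.

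For gene levels, UMIs were summed over the members of each library with at least 10 members. This kept 9 libraries and 487 members (2 each of PBS_vehicle, PBS_NVP and Bleo_NVP, and 3 of Bleo_vehicle), with 40873 to 1060190 UMIs per library. Members were set against the remaining nuclei of the same library. Because members were chosen on these nuclei, differences are described as log2 differences with their SE and without p. The opposing genes of the rule also lower genes that go with them. Of 13470 genes, 26.2% passed the edgeR threshold (9.20% higher and 17.0% lower in members), and a list's count is to be read against that.

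The highest-ranked genes formed several functional kinds. Among transcription factors, Bnc1 (chr7:81966672-81992292) was at 144 ± 29.4 CPM in members and 0.545 ± 0.375 in other nuclei, a log2 difference of 7.87 ± 0.32 (SE, n = 9). Gata4, a mesodermal factor, was at 164 ± 84.5 against 1.45 CPM, a difference of 6.67 ± 0.35. Aldh1a2 (chr9:71215789-71296243) was at 569 ± 290 against 3.23 ± 1.38 CPM, a difference of 7.08 ± 0.41. Pkhd1l1 (chr15:44457494-44601369) was at 1636 ± 662 against 6.14 CPM, a difference of 7.74 ± 0.38. All of these were higher in members in 9 of 9 libraries, which was a condition for a gene to be ranked here. Coordinates are those of GRCm38.

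Several leading genes are best known from neurons or sensory cells. Il1rapl1, a synaptic adhesion molecule, was at 1580 ± 703 against 11.9 CPM, a log2 difference of 6.98 ± 0.23. Nxph1, a secreted neurexin ligand, differed by 7.03, and Kcnd2, a potassium channel subunit, by 5.62. Grip1, a scaffold that also carries the basement membrane protein Fras1 to the cell surface, was at 6842 ± 2203 against 138 CPM, a difference of 5.42 ± 0.17. Fras1 itself was at 1243 ± 721 against 27.9 ± 17 CPM, a difference of 5.31 ± 0.44. Sulf1, an extracellular heparan sulfate sulfatase, was at 3225 ± 1705 against 65.7 CPM. Wt1os, annotated antisense to the rule gene Wt1, differed by 6.99, and whether counting used strand is not given in the sources used here.

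**Figure D3:**
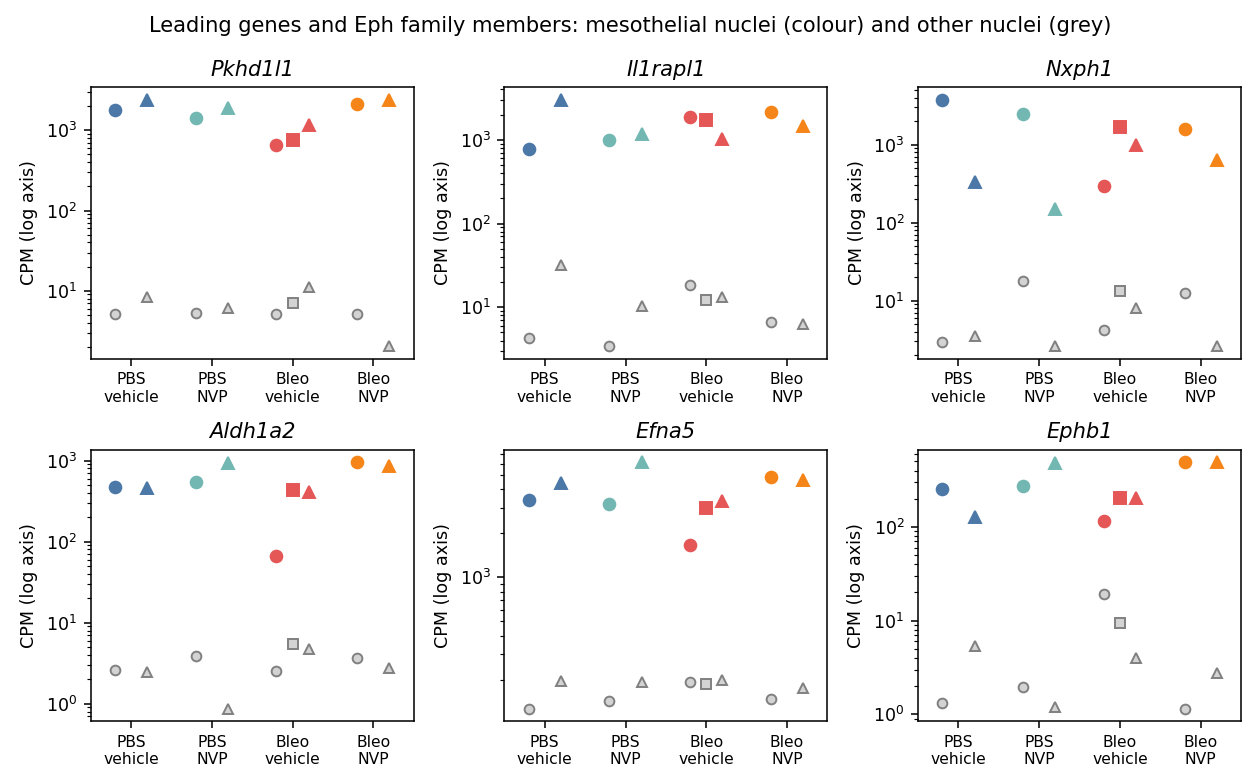
CPM (log axis) of leading genes and Eph family members by group, with circles, squares and triangles for replicates 1, 2 and 3. Coloured points are members, grey points are the other nuclei of the same library, and a hollow point marks 0 UMIs drawn at the floor. Members lie above other nuclei for the leading genes.

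Promoter sequences are shown for 3 of these genes as examples chosen after their values were seen, a transcription factor, a retinoid enzyme and a receptor of the Eph family, to which the inhibitor's target belongs. The sequences are the 250 bases before the RefSeq start on GRCm38.p6, 5′ to 3′ on the gene's strand, and capitals mark a match to a searched motif. The regions are chr7:81992300-81992549 (minus strand) for Bnc1, chr9:71215539-71215788 (plus strand) for Aldh1a2 and chr9:102354694-102354943 (minus strand) for Ephb1.
Bnc1: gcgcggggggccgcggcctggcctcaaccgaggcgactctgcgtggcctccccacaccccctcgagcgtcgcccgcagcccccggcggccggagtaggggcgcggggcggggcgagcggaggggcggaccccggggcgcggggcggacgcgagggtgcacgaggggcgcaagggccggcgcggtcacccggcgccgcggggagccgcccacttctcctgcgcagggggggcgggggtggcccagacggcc
Aldh1a2: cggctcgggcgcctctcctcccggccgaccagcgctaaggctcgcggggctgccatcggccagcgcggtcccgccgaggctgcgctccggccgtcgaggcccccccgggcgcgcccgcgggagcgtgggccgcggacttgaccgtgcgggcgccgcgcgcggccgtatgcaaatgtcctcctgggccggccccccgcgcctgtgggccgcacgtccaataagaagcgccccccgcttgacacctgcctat
Ephb1: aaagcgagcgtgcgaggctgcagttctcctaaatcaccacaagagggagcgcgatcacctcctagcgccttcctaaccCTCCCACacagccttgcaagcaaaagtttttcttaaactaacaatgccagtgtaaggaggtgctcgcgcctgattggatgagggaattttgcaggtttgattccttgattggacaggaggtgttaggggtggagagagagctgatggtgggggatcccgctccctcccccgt
RefSeq promoters matched 13 of the 20 leading genes, with 16 promoters in all. On both strands, the WT1 core GTGGGAG was in 2 of 16 (12.5%) and in 8.25% of all 32851 promoters. The TEAD motif CATTCC was in 1 of 16 (6.25%) against 12.6%, and the GATA motif AGATAA in 0 of 16 against 9.99%. A match is a description of the letters only.

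Eph receptors and their ephrin ligands signal between neighbouring cells, and 16 of the 22 family genes listed could be compared with other nuclei. Of these, 4 were higher in members and 7 lower, with a median of -0.40 against -0.20 over all genes. Efna5, a GPI-anchored ligand (chr17:62604184-62881317), was at 3842 ± 1305 CPM in members and 173 ± 27.3 in other nuclei, a log2 difference of 4.16 ± 0.18. The receptor Ephb1 (chr9:101922128-102354693) was at 293 ± 154 against 5.14 ± 5.91 CPM, a difference of 6.03 ± 0.73. Both were higher in 9 of 9 libraries, which for Ephb1 was a condition for its place among the leading genes. Ephb4 itself was sparse. It was detected in 33 of 505 members (6.53%) against 4.38% to 18.4% of other nuclei, at 19.8 ± 18.6 against 32.2 ± 10.6 CPM, a difference of -0.98 ± 0.33. Its ligand Efnb2 was in 62 members (12.3%) against 6.02% to 26.4%, a difference of -0.87 ± 0.26. The receptor Epha3 was at 5.46 against 107 CPM.

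Epithelial traits were divided. Of 19 junction and polarity genes compared with other nuclei, 4 were higher (Cdh3, Cldn1, Cldn15 and Crb2) and 9 lower. Cdh3, or P-cadherin, was at 91.9 ± 25.4 against 0.974 CPM, and Cldn15, a tight junction claudin, at 78.3 ± 48 against 0.958. Cdh1, or E-cadherin, was at 58.1 ± 63.1 against 216 ± 17.9 CPM, and Ocln (occludin) at 15.4 against 111. Against type I alveolar nuclei 13 of 19 were lower and 4 higher, where 16.4% of all genes were lower and 12.5% higher. Against fibroblast nuclei 11 of 18 were higher and 0 lower, where 12.4% of all genes were higher and 20.3% lower. Of 9 keratin and filament genes, 2 were higher, among them Krt19, and 2 were lower. Krt19 differed by 1.16 ± 0.31 and was higher in 6 of 9 libraries.

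Extracellular matrix genes differed in direction with the class compared. Of 23 fibrillar and interstitial matrix genes, 9 were higher than in other nuclei and 7 lower, with a median of 0.47. Dcn (decorin) was at 254 ± 55.8 against 11.7 ± 5.41 CPM, Col3a1 at 490 ± 183 against 138 ± 35.4, and Col14a1 at 165 ± 120 against 17.7. Col1a1 was at 22.7 ± 20.5 against 35.5 ± 22.5 CPM. Against fibroblast nuclei 14 of 23 were lower, where 20.3% of all genes were lower. Against type I nuclei 15 of 23 were higher, where 12.5% of all genes were higher. Of 26 basement membrane genes, 4 were higher (Col4a6, Lama5, Nid2 and Fras1) and 13 lower.

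Surface and defence genes included several that were higher in members. Has1, a hyaluronan synthase, was at 88.8 ± 62.2 against 1.73 ± 1.34 CPM, and the heparan sulfate proteoglycan Gpc3 at 2500 ± 853 against 214 ± 142. Of 13 lubrication and glycocalyx genes 4 were higher and 1 lower. Of 15 complement and innate defence genes 9 were higher and 0 lower, with a median of 1.20. The complement component C3 was at 221 ± 60.1 against 12.8 ± 6.66 CPM. Of 16 interferon response genes 3 were higher, among them Oasl2 at 223 ± 66.9 against 18.3 ± 5.08 CPM. The cytokine Csf1, a macrophage growth factor, was at 77.2 ± 58.3 against 8.46 CPM.

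Growth factor genes included both directions, with 10 of 27 higher and 6 lower. Fgf9, a fibroblast growth factor of the embryonic mesothelium, was at 37.0 ± 19.5 against 0.640 CPM. Igfbp5, a binding protein of insulin-like growth factors, was at 743 ± 202 against 21.5 ± 5.09 CPM, and Pdgfd at 1148 ± 695 against 154 ± 31.2. Rspo1, which amplifies Wnt signals, was at 185 ± 75.7 against 4.20 CPM. Vegfa was at 90.6 ± 55.6 against 779 ± 162 CPM, and Fgf10 at 8.06 against 147. In the retinoid list 3 of 11 were higher, among them Aldh1a2 and Rdh10, and 4 were lower. Of 15 genes of mesothelial to mesenchymal transition, Tgfb2 was higher and 9 were lower, among them Zeb2 at 242 ± 260 against 1116 CPM.

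Other lists covered cell state. Among 19 circadian clock genes 4 were higher, among them the transcription factor Hlf at 291 ± 151 against 30.3 ± 13.6 CPM, and 1 was lower. Immediate early genes were split, with 4 higher and 4 lower of 18. Of 14 p53 and DNA damage targets, Eda2r was higher and 2 were lower. None of the 8 proliferation genes or the 13 mitochondrially encoded genes passed the edgeR threshold in either direction. The mitochondrial share of UMIs over the fitted libraries was 0.0627% to 0.130% in PBS_vehicle members and 0.0474% to 0.0567% in other nuclei. In PBS_NVP it was 0.104% to 0.127% against 0.0622% to 0.0625%, and in Bleo_NVP 0.122% to 0.183% against 0.0527% to 0.0550%. Bleo_vehicle members held 0.748% to 1.62% against 0.616% to 1.43%, and in replicate 2 members were lower.

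The fibroblast markers (Itga8, Scube2, Npnt, Pdgfra, Tcf21 and Col13a1, without the adventitial list) chose 8758 nuclei over all 12 libraries. Those in the 9 fitted libraries were compared. Against them, 32.8% of 10766 genes passed (12.4% higher, 20.3% lower). Gpm6a was at 6015 ± 3529 against 9.14 CPM, a log2 difference of 8.69 ± 0.54. Lower genes included Nox4, an NADPH oxidase, at 46.8 against 3296 CPM, C7, a terminal complement component, at 42.1 against 2852, and the adrenergic receptor Adra1a at 6.83 against 525. The type I alveolar markers chose 10865 nuclei over all 12 libraries, and those in the 9 fitted libraries were compared. Against these, 28.9% of 11504 genes passed (12.5% higher, 16.4% lower). Gpm6a differed by 3.13 ± 0.21 there, at 452 CPM in type I nuclei. Lower genes included the cadherin Cdh13 at 25.8 against 982 CPM, and Rasgrf2, a Ras exchange factor, at 16.8 against 963. The gates that chose these nuclei fix the direction of their own marker genes.

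**Figure D4:**
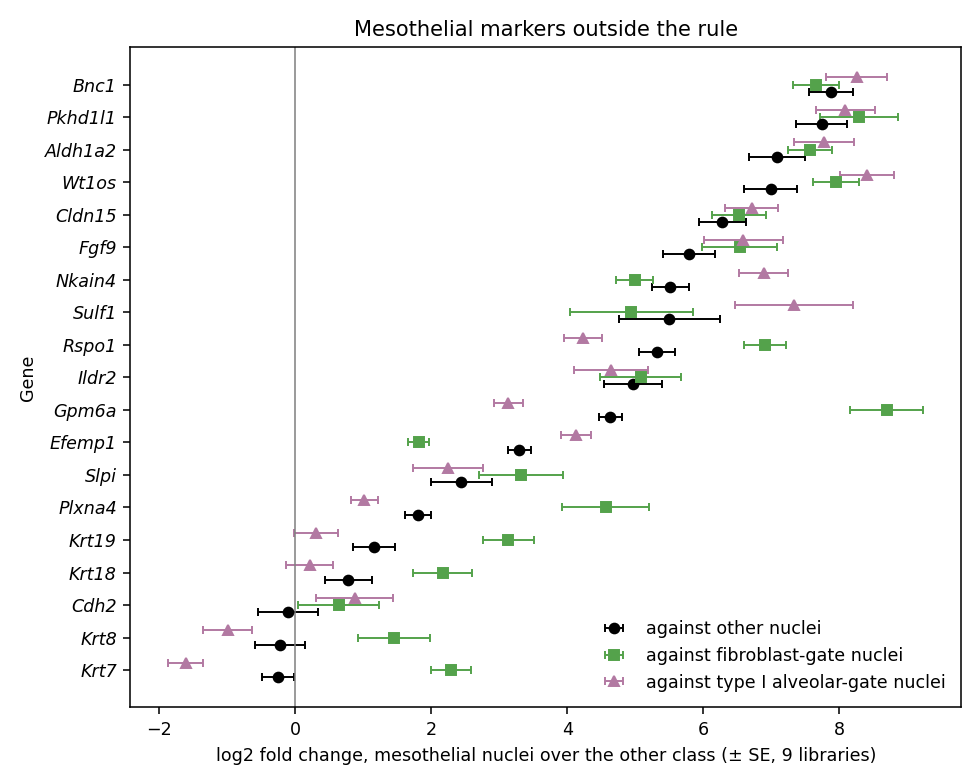
Log2 fold change with SE (x axis) of mesothelial genes outside the rule (y axis), members over other nuclei, fibroblast nuclei and type I alveolar nuclei in 9 libraries. Of the 19 compared, 15 were higher than in other nuclei, 18 than in fibroblast nuclei and 14 than in type I nuclei, and Krt7 and Krt8 were lower than in type I nuclei.

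Groups were compared over the 9 libraries in 1 edgeR quasi-likelihood fit of 2942 genes with Benjamini-Hochberg adjustment. In bulk sums of members, fewer expressing nuclei and less RNA per nucleus cannot be told apart. In Bleo_vehicle against PBS_vehicle, 9 genes (0.306% of those tested) passed, all higher and all mitochondrially encoded. mt-Co1, a subunit of cytochrome oxidase, was at 3031, 1807 and 1382 CPM in Bleo_vehicle and at 246 and 92.2 in PBS_vehicle, with no overlap. The log2 fold change was 3.62 ± 0.52 (edgeR adjusted p = 0.00586). mt-Atp6 rose by 3.70 ± 0.49 and mt-Cytb by 3.43 ± 0.50 (edgeR adjusted p = 0.00586 for both). Of 13 mitochondrial genes 10 were tested and 9 rose, with a median of 3.48 against -0.00 over all genes. The non-member nuclei moved alongside, with mt-Co1 at 2720, 2102 and 1190 CPM in Bleo_vehicle and 94.1 and 90.2 in PBS_vehicle. Without Bleo_vehicle replicate 1, 9 genes passed and the log2 fold change of mt-Co1 was 3.13. Without Bleo_vehicle replicate 3, 15 passed. Without PBS_vehicle replicate 3, which left 1 library in that arm with the spread taken from the other groups, 0 passed, and mt-Co1 was at 3.19 (edgeR adjusted p = 0.0582).

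Mesothelial genes did not pass in that comparison. Gpm6a was at 845, 2203 and 3068 CPM in Bleo_vehicle against 5280 and 8689 in PBS_vehicle, without overlap, at -1.67 (edgeR adjusted p = 0.446). Lrp2, the endocytic receptor megalin, was at 133, 118 and 219 CPM against 606 and 1144, at -2.24 (edgeR adjusted p = 0.0623). Of the 20 mesothelial genes outside the rule 13 were tested and 0 passed, with a median of -0.76. The type II and macrophage markers given above were higher in these same Bleo_vehicle libraries, and their part in the result was not tested.

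In Bleo_NVP against Bleo_vehicle, which shares the 3 Bleo_vehicle libraries with the previous comparison, 10 genes (0.340%) passed, 2 higher (0.0680%) and 8 lower (0.272%). Nkain2, which interacts with the sodium pump, was at 612 and 832 CPM in Bleo_NVP and at 0, 92.9 and 48.1 in Bleo_vehicle. These rest on 25 and 56 UMIs against 0, 11 and 51. It was at 87.4 and 73.8 CPM in PBS_vehicle and 158 and 330 in PBS_NVP. The log2 fold change was 3.72 ± 0.54 (edgeR adjusted p = 0.0135). Other nuclei stayed between 2.3 and 21.4 CPM in all 9 libraries.

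Pdgfd, a ligand of the PDGF receptor beta, was at 2324 and 1843 CPM in Bleo_NVP and 248, 355 and 690 in Bleo_vehicle, with PBS_vehicle at 1103 and 1642 and PBS_NVP at 856 and 1272. It rose by 2.11 ± 0.41 (edgeR adjusted p = 0.0399). The groups did not overlap, which was a condition for naming a gene in this comparison. Ccnd3, a cyclin of the G1 phase, was at 147 and 74.3 CPM in Bleo_NVP and 1010, 760 and 604 in Bleo_vehicle. It fell by 3.01 ± 0.49 on the log2 scale (edgeR adjusted p = 0.0151). In other nuclei Ccnd3 was at 326 and 284 CPM against 983, 956 and 692, so the same order held there. The other named genes that fell were mitochondrial. mt-Co1 was at 220 and 238 CPM in Bleo_NVP, a change of -3.30 ± 0.53 (edgeR adjusted p = 0.0151), and 89.6 and 86.8 CPM in its other nuclei.

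Only 2 Bleo_NVP libraries were fitted, so leaving out either gave an arm of 1 library, whose spread was then assumed to be that of the other groups. The folds of the named genes kept their direction in both fits, while their size depended on the library left out. Without replicate 1 the log2 fold change was 3.88 for Nkain2, -3.53 for Ccnd3 and 1.90 for Pdgfd (edgeR adjusted p = 0.0540, 0.0608 and 0.295). Without replicate 3 it was 3.45, -2.54 and 2.26 (edgeR adjusted p = 0.215, 0.265 and 0.215). Without Bleo_vehicle replicate 1 the adjusted p was 0.00628, 0.0101 and 0.0513 by edgeR, and 12 genes passed. The count was 34 and 18 when PBS_vehicle replicate 3 or 1 was left out, and 20 when Bleo_vehicle replicate 3 was. Members free of other-class markers left 6 libraries with 1 of Bleo_NVP, in which no gene passed and Nkain2 was at 2.91 (edgeR adjusted p = 0.605). Gpm6a was at 10349 and 7551 CPM in Bleo_NVP, a change of 2.04 (edgeR adjusted p = 0.128). Efna5 was at 4844 and 4623 CPM against 1673, 2989 and 3309 (0.73, edgeR adjusted p = 0.450), and Ephb1 at 489 and 491 against 116, 203 and 205 (1.32, edgeR adjusted p = 0.174). Of the 22 Eph family genes 3 were tested and 0 passed.

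**Figure D5:**
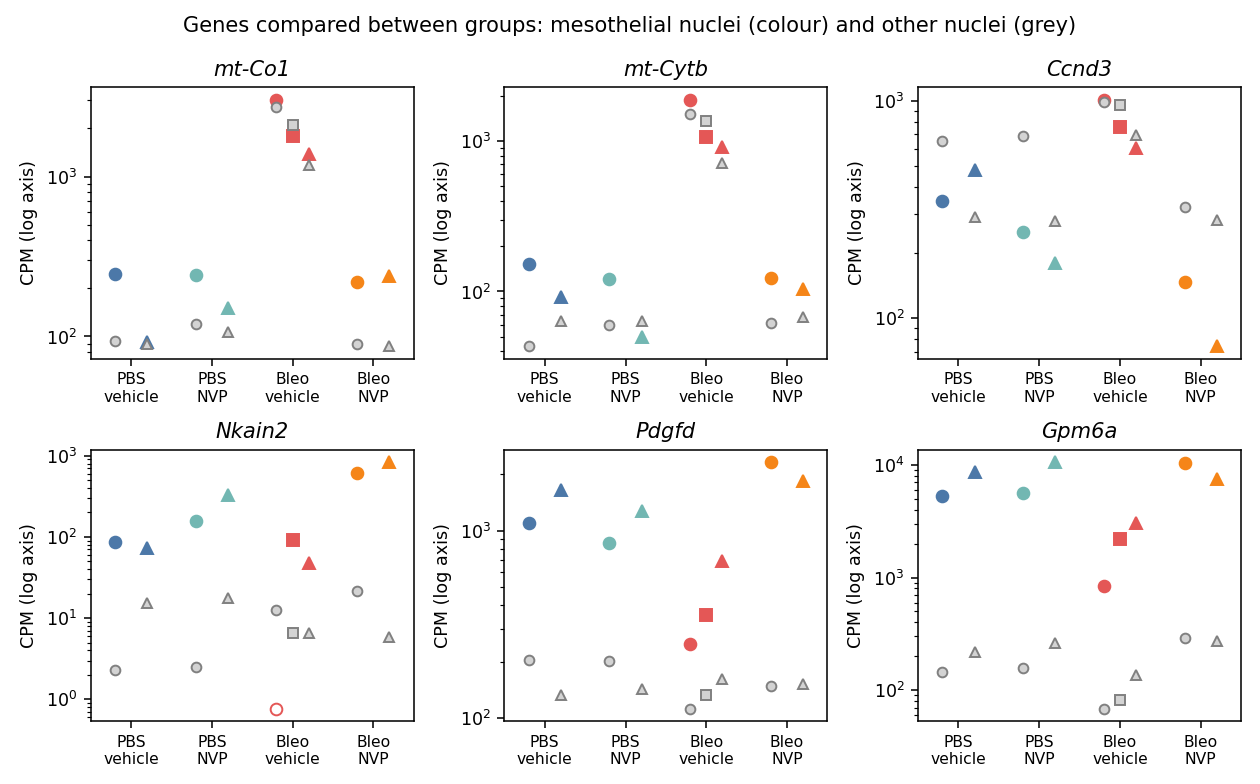
CPM (log axis) by group of genes compared between groups, with coloured points for members and grey points for other nuclei of the same library. Circles, squares and triangles are replicates 1, 2 and 3, and a hollow point marks 0 UMIs drawn at the floor. Mitochondrial genes are highest in Bleo_vehicle in members and other nuclei alike.

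No gene passed in PBS_NVP against PBS_vehicle, in Bleo_NVP against PBS_NVP, in bleomycin against PBS over both treatments or in the interaction by edgeR. Of the 2942 genes tested, 74, 154, 141 and 212 had an unadjusted edgeR p under 0.05 in these comparisons. A share of 0.05 passes that threshold where no gene differs. DESeq2 called 0, 0, 1 and 2. The difference of the inhibitor's effect between bleomycin and PBS mice was 2.24 for Nkain2 (edgeR adjusted p = 0.614) and 2.48 for Pdgfd (edgeR adjusted p = 0.269), so an effect particular to bleomycin-treated mice was not shown.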

How the data were processed

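Nuclei sorted from frozen lung were sequenced by the 10x 3′ method. The authors deposited UMI counts per gene and barcode aligned to mm10 for 31053 genes. The file headers name Cell Ranger 7.2.0 and the submitters' processing notes Cell Ranger 7.0 and Seurat 4.4.1. Members and gene lists were chosen with earlier results of these data known. Counts were summed per library and fitted with edgeR 4.0.16 (TMM, low-count filter, quasi-likelihood test, adjusted p below 0.05), without the 15 rule genes. Group comparisons used libraries with at least 10 members, and class comparisons took library as a block. Printed CPM are UMIs per 1000000 UMIs of the summed nuclei, without TMM. Named were the genes with the largest change among those passing, with clone names left out, plus the lists' members. In class comparisons they also needed a minimum CPM and the same direction in all fitted libraries. In Bleo_NVP against Bleo_vehicle they also needed a minimum mean CPM and no overlap of CPM between the groups. Shares were compared by exact permutation tests (scipy 1.17.1). DESeq2 1.42.0, other filters, thinning and left-out libraries were alternatives. Scripts were tested on simulated data. Free RNA was not removed and intervals cover counting error only. Some genes of the lists are not reported here.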

Additional observations from a re-analysis of the deposited data

How the results depend on the processing

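Counts of genes passing moved with the settings. For Bleo_vehicle against PBS_vehicle (9), DESeq2 gave 14, a limit of 1% mitochondrial UMIs 1, at least 20 members per library 79, no low-count filter 38, a stricter member rule 4, and leaving out 1 library 0 to 15. For Bleo_NVP against Bleo_vehicle (10), DESeq2 gave 34, all 12 libraries 22, the 1% limit 1, at least 20 members 164, no filter 92, the stricter rule 5, members without other-class markers 0, and leaving out 1 library 0 to 34. For PBS_NVP against PBS_vehicle (0), at least 20 members gave 17, no filter 6 and left-out libraries 0 to 2. For Bleo_NVP against PBS_NVP (0) these were 48, 2 and 0 to 2. For bleomycin against PBS (0), DESeq2 gave 1, all 12 libraries 1, at least 20 members 59, members with Gpm6a 2, no filter 14 and left-out libraries 0 to 1. For the interaction (0), DESeq2 gave 2, at least 20 members 109, no filter 56 and left-out libraries 0 to 1. The setting of at least 20 members keeps 5 libraries with 1 residual degree of freedom. Against other nuclei (3526) DESeq2 called 6860, with 3055 to 3572 over left-out libraries. Against fibroblast nuclei (3528) the fit without a library block gave 2288, with 2612 to 3539 over left-out libraries. Against type I nuclei (3320) DESeq2 called 5564, with 3029 to 3334. Where a cause is not given, the cause was not tested.

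The difference in share, in percentage points, changed sign for Bleo_vehicle minus PBS_vehicle without members with other-class markers (-0.132) and for Bleo_NVP minus Bleo_vehicle likewise (0.189). It did so for PBS_NVP minus PBS_vehicle after thinning (0.0266) and under the stricter rule (0.0783), and for Bleo_NVP minus PBS_NVP (-0.0265 and -0.0215). Over left-out libraries the differences ran from -0.0255 to 0.315 for bleomycin minus PBS, -0.171 to 0.482 for Bleo_vehicle minus PBS_vehicle, -0.455 to 0.233 for Bleo_NVP minus Bleo_vehicle, -0.231 to 0.239 for PBS_NVP minus PBS_vehicle and -0.209 to 0.434 for Bleo_NVP minus PBS_NVP.

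With the replicate number as a replicate block, Bleo_NVP against Bleo_vehicle gave 26 genes, bleomycin against PBS 9 and Bleo_vehicle against PBS_vehicle 13. Same-numbered libraries correlated at 0.238 in the PBS groups and at -0.0734 to 0.0807 elsewhere. In a group with 2 fitted libraries the deviations from the mean mirror each other. These values therefore cannot decide whether the numbers pair libraries. A block on run number in the PBS libraries with at least 10 members could not be fitted, with 0 residual degrees of freedom. Nkain2 passed in 14 of 18 alternatives, Ccnd3 in 14 and Pdgfd in 9, and none of the genes that passed and are named in the group comparisons changed direction under these. The settings of all 12 libraries, members with Gpm6a, and run number as a block over the 6 PBS libraries (0 genes) were chosen after seeing the data. Libraries with 3, 6 and 9 members stayed out of the group comparisons, in which 2942 genes reached the count filter. With all 12 libraries 1915 did.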
